A study of Mus musculus with 27 samples.

Results

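NRF2, the transcription factor encoded by Nfe2l2, was examined together with its cytoplasmic inhibitor Keap1 and 7 of its classical target genes, namely Hmox1, Nqo1, Gclc, Gclm, Slc7a11, Txnrd1 and Srxn1. The members were chosen by measured values of these same arrays: Nfe2l2 stood out for opposite changes on re-stimulation with CpG and with Poly(I:C), and the other genes were added as its known regulator and targets. A member was represented by every array probe that carries its symbol, which gave 9 of 34844 gene names and 10 of 55681 non-control probes. All 9 accessions of these probes matched a RefSeq entry of the same symbol, and Hmox1 was the only member with more than 1 probe. Values that chose Nfe2l2 are given below as a description without a test, and for every member its changes on re-stimulation with these ligands are treated in the same way.

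Gene expression had been measured in bone marrow derived macrophages (BMDM) of female C57BL/6 mice, 6 to 8 weeks old, which were grown for 7 days in medium conditioned by L929 cells. Naive BMDM were left without ligand. Acutely stimulated BMDM received 1 ligand for 4 h, and re-stimulated BMDM received a ligand for 24 h, were washed, rested for 1 h and then met the same ligand for 4 h. The ligands were lipopolysaccharide (LPS, 100 ng/ml), which activates TLR4, the lipopeptide Pam3CSK4 (100 ng/ml), a TLR2 agonist, the double-stranded RNA mimic Poly(I:C) (10 µg/ml), which acts on TLR3, and CpG DNA, a TLR9 agonist given as 100 µM in the sample labels and as 1 µM in the study's methods. Each of the 9 groups had 3 arrays, of which 2 arrays in all, replicate 3 of LPS re-stimulated and replicate 2 of Pam3CSK4 acute BMDM, were left out by the authors for quality, so that 25 arrays were used. The methods describe a different mouse for each replicate and also a pool of 3 mice for each culture, so it is not settled what a replicate stands for, and p-values measure the spread between these samples.

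In unstressed cells KEAP1 holds NRF2 in the cytoplasm and hands it to a CUL3 ubiquitin ligase, so that the protein is made and degraded continuously. Oxidants and electrophiles modify cysteines of KEAP1, NRF2 then escapes, pairs with a small MAF protein and binds antioxidant response elements next to genes of glutathione synthesis, the thioredoxin system, quinone reduction and heme breakdown. In macrophages this programme is known as a brake on inflammatory gene expression. The arrays measured transcripts, whereas much of the control of NRF2 acts on its protein.

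Values are the authors' log2 intensities, on which 1 unit is a doubling. Differences between groups were tested with limma, with Benjamini-Hochberg adjustment over all probes tested in a comparison. A probe was called where the adjusted p was under 0.05 and the change at least 1.5-fold. Levels of different probes depend on the probe and are not compared between genes. In RNA from whole cultures, fewer cells that express a gene and less RNA per cell cannot be told apart.

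All 6 macrophage markers were well above background on all 25 arrays. Of the markers of other cell types, 2 of 4 neutrophil markers were above background on every array. So was 1 of 3 markers each for T cells, B cells and fibroblasts. The summed neutrophil signal ran from 11.9 in LPS acute to 13.5 in LPS re-stimulated BMDM, and that of the fibroblast markers from 5.95 to 9.09 between the same groups. The dendritic cell signal ran from 5.24 in naive to 10.3 in LPS acute BMDM. In the dendritic cell sum the group means of Zbtb46 ran from 4.05 to 10.3, while Flt3 reached 5.72 and Xcr1 2.65. In the fibroblast sum those of Dcn ran from 4.78 to 9.01, while Col1a1 reached 4.53 and Col3a1 4.66. The part of these shifts in the results was not tested. All arrays but those of acute LPS shared 3 slides, each slide holding 1 replicate number, whereas those had 3 slides and 2 scan days of their own, so slide and group cannot be told apart in any comparison with acute LPS. Naive replicate 3 stood apart, with 74.9% of probes well above background against 43.1 to 55.0% on the other arrays used. All 10 member probes were well above background on all 25 arrays.

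The promoter sequences of members show where the letters of the NRF2 site lie. Windows from 250 bases before to 50 bases after the annotated start were taken from RefSeq (GRCm38.p6) and were given for 7 of the 9 members, in 9 windows, 3 of them of Txnrd1. The core of the antioxidant response element, TGACNNNGC searched on both strands, lay in 4 of these 9 windows, those of Nfe2l2, Gclm, Srxn1 and 1 window of Txnrd1, and in 12.4% of all 32851 windows. The AP-1 element (TGACTCA or its reverse complement TGAGTCA), which can overlap the NRF2 site, lay in 1 of the 9, that of Srxn1, and in 5.2% of all. Both motifs overlapped in 0.454% of all windows and in none of the members'. A match is a match of letters, not a shown binding site. The Nfe2l2 stretch is shown because it carries the core of the factor's own element, in capitals, the Gclm stretch because it carries the reverse complement of the core, in capitals, and the Srxn1 stretch because it carries the AP-1 letters in 2 places, in capitals. They lie at chr2:75704664-75704913 on the minus strand, chr3:122245307-122245486 on the plus strand and chr2:152105274-152105523 on the plus strand, and each is printed 5′ to 3′ along its gene.
Nfe2l2: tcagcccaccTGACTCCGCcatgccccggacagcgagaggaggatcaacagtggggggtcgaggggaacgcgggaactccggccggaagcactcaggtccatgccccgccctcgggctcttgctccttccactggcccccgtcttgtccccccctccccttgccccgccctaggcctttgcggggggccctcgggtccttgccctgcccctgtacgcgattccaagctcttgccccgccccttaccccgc
Gclm: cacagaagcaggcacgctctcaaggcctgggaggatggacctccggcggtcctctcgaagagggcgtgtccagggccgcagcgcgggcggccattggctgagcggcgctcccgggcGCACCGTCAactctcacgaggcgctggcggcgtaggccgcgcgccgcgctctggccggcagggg
Srxn1: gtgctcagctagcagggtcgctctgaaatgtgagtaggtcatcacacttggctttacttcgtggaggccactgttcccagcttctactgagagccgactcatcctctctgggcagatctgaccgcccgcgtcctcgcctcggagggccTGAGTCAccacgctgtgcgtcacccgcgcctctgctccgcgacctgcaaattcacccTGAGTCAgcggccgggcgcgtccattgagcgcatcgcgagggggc

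Nfe2l2 (probe at chr2:75513771-75513830, mm9) was high after acute CpG and acute Pam3CSK4 and close to the naive level in most other groups. Naive BMDM read 13.92, 13.90 and 14.26. Acute CpG gave 15.43, 15.42 and 14.54, and acute Pam3CSK4 gave 15.50 and 14.68. All 5 of these arrays lay above the highest naive array, by an average of 1.10 for CpG (SE 0.30) and 1.06 for Pam3CSK4 (SE 0.32), about 2.15-fold and 2.09-fold. The Pam3CSK4 difference did not pass the test (adjusted p = 0.331, limma), and that of CpG was not tested because the gene was chosen on the CpG arrays.

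Acute LPS left Nfe2l2 at 14.07, 13.87 and 13.98, within the naive range but for 1 array just below it, and the difference of -0.05 (SE 0.19) had an adjusted p of 0.857. Acute Poly(I:C) gave 13.67, 13.80 and 13.80, all below the naive arrays, with a mean difference of -0.27 (SE 0.18). When array medians were set equal in place of quantile normalization the differences read 0.50 and 0.39, with the median of all probes moved to 0.21 and 0.28. CpG lay 1.37 (SE 0.28) above Poly(I:C) after acute stimulation and Pam3CSK4 lay 1.33 (SE 0.29) above it, with no overlap in either case, while CpG and Pam3CSK4 differed by 0.04 (SE 0.41).

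On re-stimulation with CpG the Nfe2l2 values were 13.90, 13.99 and 13.95, close to the naive arrays. This change from acute to re-stimulated BMDM, one of the values that chose the gene, was -1.18 (SE 0.27). Within the 3 replicate numbers it was -1.53, -1.43 and -0.60. Poly(I:C) went the other way, from the acute values above to 14.26, 14.33 and 14.48, a change of 0.60 (SE 0.16) with steps of 0.59, 0.53 and 0.67 within the numbers. The change in Poly(I:C) lay close to the 1.5-fold limit, at 1.51-fold.

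Pam3CSK4 and LPS had no part in that choice. Pam3CSK4 re-stimulated BMDM read 13.70, 13.77 and 13.89, all below both acute arrays, and the change of -1.30 (SE 0.30, 2.46-fold lower) had the sign of CpG but did not pass the test (adjusted p = 0.211). It was called in 2 of 15 settings, with an adjusted p of 0.00738 in 1 fit of all 9 groups and 0.00301 when the slide was added to that fit as a random block. LPS re-stimulated BMDM read 13.80 and 13.91, against which the acute arrays overlapped, and the change was -0.12 (SE 0.19, adjusted p = 0.668). Against naive BMDM the re-stimulated groups stood at -0.24 with Pam3CSK4, -0.17 with LPS, -0.08 with CpG and 0.33 with Poly(I:C), of which LPS and Pam3CSK4 were tested, with adjusted p of 0.645 and 0.463 respectively. With array medians set equal the median of all probes read 0.46 for Pam3CSK4, 0.40 for LPS and 0.78 for CpG, and the 3 negative differences moved with it to positive values.

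**Figure D1:**
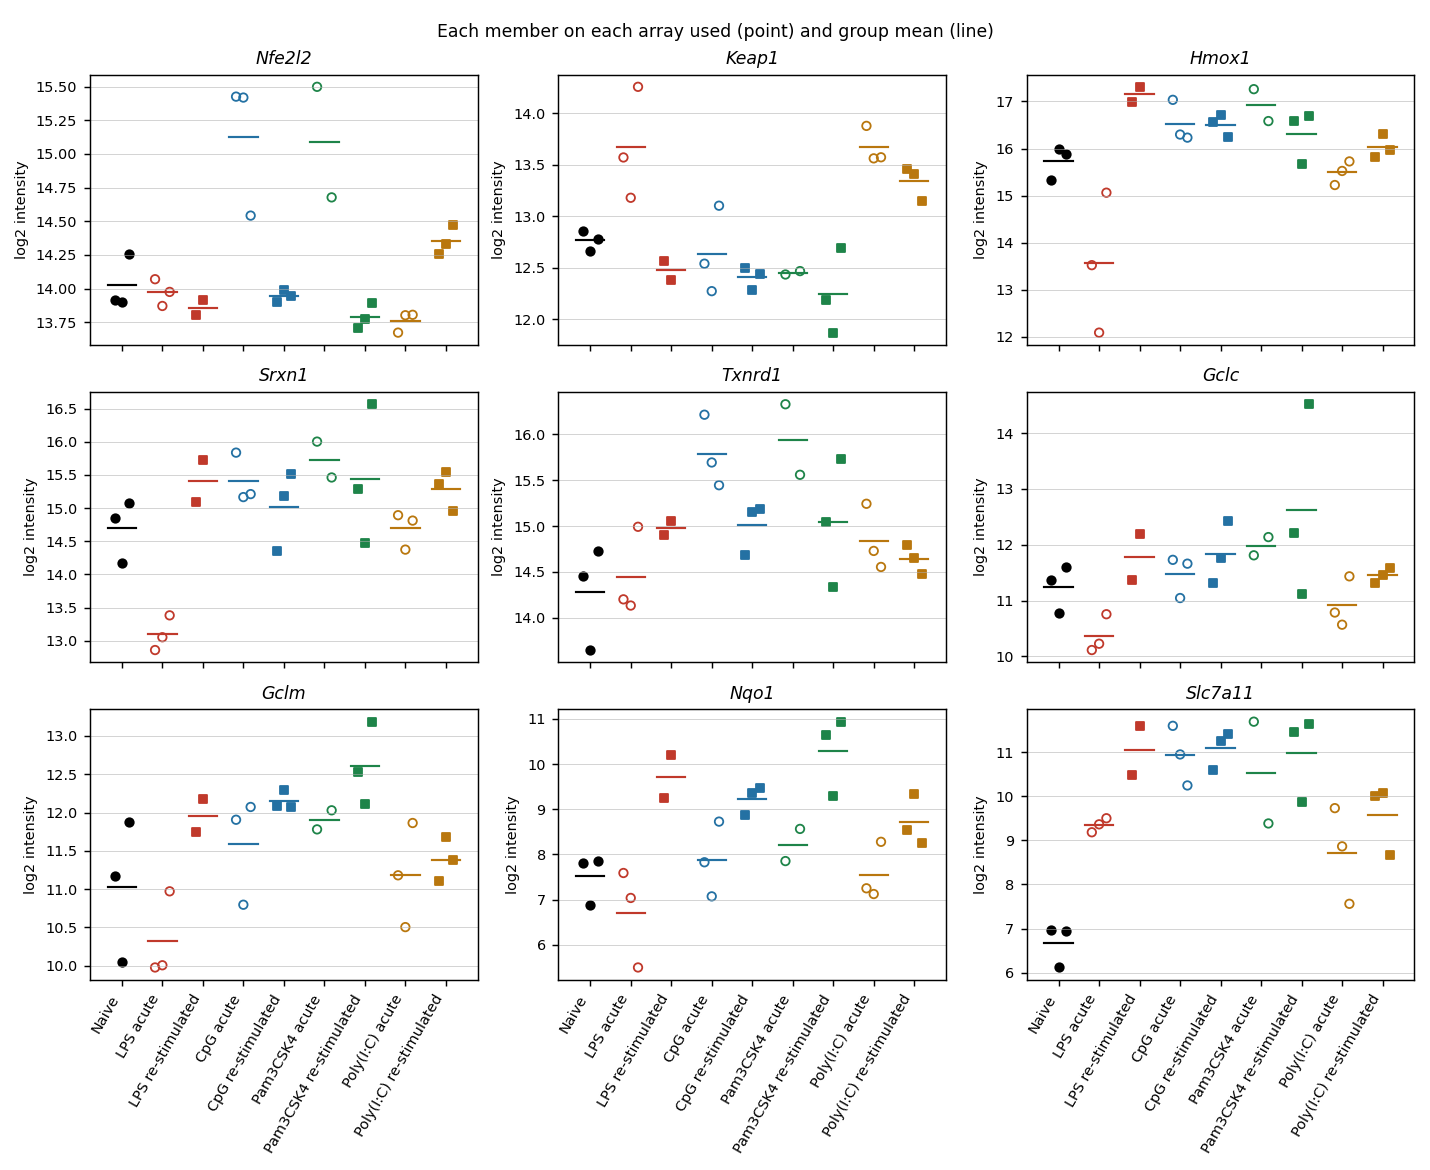
Each panel plots 1 member by its lead probe, with the authors' log2 intensity on the y axis and the 9 groups on the x axis. Points are single arrays and short lines are group means. Nfe2l2 lies above 14.5 on all 5 acute CpG and Pam3CSK4 arrays and on no other array, and Slc7a11 lies above its 3 naive arrays on every stimulated array.

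Keap1 (probe at chr9:21035292-21035732, mm9, across a splice junction), whose product tethers NRF2 for degradation, showed another order of groups. The naive arrays read 12.86, 12.66 and 12.78. Acute Poly(I:C) raised the transcript to 13.88, 13.56 and 13.57, all above naive, and the gain of 0.90 (SE 0.17, 1.87-fold) was called (adjusted p = 0.0407). With the replicate number as a block the adjusted p was 0.0520, and without naive replicate 1 or 2 or without Poly(I:C) acute replicate 1 or 2 it was 0.114 to 0.159, with a gain of 0.80 to 0.96. Setting array medians equal gave a gain of 1.51 with an adjusted p of 0.235.

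Acute LPS read 13.57, 13.18 and 14.26 for Keap1, also above every naive array, but this difference of 0.90 (SE 0.30) missed the threshold (adjusted p = 0.0702). LPS re-stimulated BMDM read 12.57 and 12.38, below all naive and all acute arrays. The fall from acute LPS, -1.19 (SE 0.34, 2.29-fold), was called (adjusted p = 0.0377). That call was lost with an adjusted p of 0.0656 without LPS acute replicate 1 and of 0.108 and 0.158 without LPS re-stimulated replicate 1 and 2. It was also lost with array medians set equal (-0.88, adjusted p = 0.129), without the detection filter (adjusted p = 0.0670) and with all 27 arrays (adjusted p = 0.106), and held in 9 of 15 settings. CpG and Pam3CSK4 showed no such rise, with acute differences from naive of -0.13 and -0.32. Across the 9 group means Keap1 and Nfe2l2 had a Pearson r of -0.22, given as a description.

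Hmox1 encodes heme oxygenase 1, which splits heme into biliverdin, carbon monoxide and iron. Its lead probe (chr8:77624207-77624266, mm9) read 15.33, 15.98 and 15.88 in naive BMDM and 13.52, 12.09 and 15.06 after acute LPS, 3 scattered arrays that all lay below naive. The difference of -2.17 (SE 0.72) missed the threshold (adjusted p = 0.0685). A second, dimmer probe at chr8:77620797-77620856 gave -2.41 (SE 0.70) with an adjusted p of 0.0480, so the probes fall on different sides of the limit.

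LPS re-stimulated BMDM had the highest group mean of Hmox1, with arrays at 16.99 and 17.31. The gain over acute LPS was 3.59 (SE 0.79) and passed the test (adjusted p = 0.0169), as did the second probe with 4.04 (SE 0.77, adjusted p = 0.0103). For the lead probe the call was lost when either LPS re-stimulated array was removed, with an adjusted p of 0.0636 without replicate 1 and 0.0852 without replicate 2. Here, as in every such removal from this group, a single array remains, which is assumed to vary like the acute arrays. Against naive BMDM the gain of 1.42 (SE 0.28) had an adjusted p of 0.0577. With all 27 arrays the gain of the lead probe over acute LPS was 3.42 and that call was lost (adjusted p = 0.0591, limma). The other ligands moved Hmox1 less, with differences between re-stimulated and acute BMDM of -0.60 with Pam3CSK4, -0.01 with CpG and 0.54 with Poly(I:C), and none of the differences of the lead probe from naive passed the test.

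Srxn1 encodes sulfiredoxin, which repairs over-oxidised peroxiredoxins. Naive BMDM read 14.85, 14.17 and 15.08 (probe at chr2:151937009-151937068, mm9), and acute LPS gave 12.86, 13.05 and 13.38, below every array of every other group. The fall of -1.60 (SE 0.29, 3.03-fold) was called (adjusted p = 0.0115), and was -1.07 with an adjusted p of 0.335 when array medians were set equal, the one setting of 16 in which the call was lost. LPS re-stimulated BMDM read 15.10 and 15.73. The gain over acute LPS, 2.31 (SE 0.28, 4.97-fold, adjusted p = 0.00240), was called in all 15 settings tried, from 2.00 to 2.63. These include the fit that brings back the LPS re-stimulated array the authors left out. No other ligand changed Srxn1 by a called amount against naive BMDM, with differences from 0.00 after acute Poly(I:C) to 1.03 after acute Pam3CSK4.

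Txnrd1 (probe at chr10:82360230-82360289, mm9), the cytosolic thioredoxin reductase, followed Nfe2l2 more closely than any other member did, with a Pearson r of 0.76 across the 9 group means. Acute CpG gave 16.22, 15.69 and 15.45 and acute Pam3CSK4 gave 16.33 and 15.56, all above the naive arrays at 14.45, 13.65 and 14.73. The differences, 1.51 for CpG (SE 0.36, adjusted p = 0.0674) and 1.67 for Pam3CSK4 (SE 0.43, adjusted p = 0.292), did not pass the test. CpG re-stimulated BMDM read 14.69, 15.15 and 15.18, below every acute CpG array, a change of -0.78 (SE 0.26). The LPS groups overlapped for this gene, with a change on re-stimulation of 0.54 (SE 0.31, adjusted p = 0.221).

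Slc7a11 encodes the xCT subunit of the cystine and glutamate exchanger, which brings in cystine for glutathione synthesis, and it was the member with the largest and most general response (probe at chr3:50169700-50169759, mm9). Naive BMDM read 6.97, 6.12 and 6.95. All 22 stimulated arrays lay above these, the lowest being an acute Poly(I:C) array at 7.56. Acute LPS gave 9.18, 9.36 and 9.50, a rise of 2.67 (SE 0.28, 6.38-fold, adjusted p = 0.00208) that was called in all 16 settings.

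Acute CpG raised Slc7a11 further, to 11.60, 10.95 and 10.25, which is 4.25 (SE 0.42, 19.1-fold) above naive with an adjusted p of 0.00957, and 0.0629 without CpG acute replicate 2. Acute Pam3CSK4, at 11.69 and 9.38, had a difference of 3.86 (SE 0.75) that did not pass the test (adjusted p = 0.288). Acute Poly(I:C), at 9.73, 8.86 and 7.56, stood 2.04 (SE 0.58) above naive, again without passing (adjusted p = 0.107). These 4 acute groups differed in spread, from an SD of 0.16 after LPS to 1.63 over the 2 Pam3CSK4 arrays.

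Re-stimulated BMDM kept Slc7a11 high under every ligand. LPS re-stimulated arrays read 10.49 and 11.60, CpG 10.60, 11.26 and 11.41, Pam3CSK4 11.46, 9.86 and 11.64, and Poly(I:C) 10.00, 10.07 and 8.67. Against naive BMDM the rises were 4.37 for LPS (SE 0.46, adjusted p = 0.0210), 4.41 for CpG (SE 0.33, adjusted p = 0.00349), 4.31 for Pam3CSK4 (SE 0.53, adjusted p = 0.0212) and 2.90 for Poly(I:C) (SE 0.46, adjusted p = 0.0211). The CpG rise was called in all 16 settings. With the replicate number as a block the adjusted p was 0.0546 for Pam3CSK4 and 0.0590 for Poly(I:C). The calls of LPS, Pam3CSK4 and Poly(I:C) were also lost without naive replicate 1 or 2, and without LPS re-stimulated replicate 1 or 2, Pam3CSK4 re-stimulated replicate 1 or 3, or Poly(I:C) re-stimulated replicate 1 or 2, with adjusted p from 0.0508 to 0.193. From acute to re-stimulated BMDM the gene rose in LPS by 1.69 (SE 0.35, adjusted p = 0.0134), and stood at 0.16 in CpG, 0.45 in Pam3CSK4 and 0.86 in Poly(I:C). The LPS call held in 11 of 15 settings. It was lost without LPS re-stimulated replicate 2 (adjusted p = 0.0514), in 1 fit of all 9 groups without and with slide as a random block (adjusted p = 0.0692 and 0.101), and with all 27 arrays, where the array left out by the authors read 9.16 and the gain was 0.99 (adjusted p = 0.391).

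Gclc and Gclm encode the catalytic and the modifier subunit of glutamate cysteine ligase, the first step of glutathione synthesis. Their group means ran in parallel, with a Pearson r of 0.97 over 9 groups, from 10.37 and 10.32 in LPS acute to 12.61 and 12.61 in Pam3CSK4 re-stimulated BMDM. The acute LPS arrays read 10.11, 10.23 and 10.76 for Gclc (probe at chr9:77641296-77641355, mm9), all below the naive 11.37, 10.77 and 11.59, a difference of -0.88 (SE 0.30, adjusted p = 0.0733). LPS re-stimulated BMDM, at 11.38 and 12.20, were 1.42 higher than acute (SE 0.33, 2.68-fold, adjusted p = 0.0203). Gclm (probe at chr3:121962174-121964809, mm9, across a splice junction) rose between the same groups by 1.64 (SE 0.36, 3.12-fold, adjusted p = 0.0170). Without LPS re-stimulated replicate 2 both calls were lost, with gains of 1.01 for Gclc and 1.43 for Gclm. With all 27 arrays they were lost too, with an adjusted p by limma of 0.0651 for Gclc and 0.0621 for Gclm. The Gclc call was also lost without LPS acute replicate 2 (adjusted p = 0.0536) and in 1 fit of all 9 groups (adjusted p = 0.0863). In Pam3CSK4 re-stimulated BMDM 1 array of 3, at 14.52, carried the Gclc mean, the others being 12.21 and 11.11. Neither gene passed the test against naive BMDM after any ligand, acute or repeated.

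Nqo1 encodes an NAD(P)H quinone reductase and is the usual reporter of NRF2 activity. Its arrays overlapped the naive ones after every acute stimulus and lay above them after every repeated one. Naive BMDM read 7.81, 6.88 and 7.86 (probe at chr8:109912440-109912499, mm9). Differences from naive after acute stimulation were -0.81 for LPS, 0.03 for Poly(I:C), 0.36 for CpG and 0.69 for Pam3CSK4, each overlapping the naive arrays, with adjusted p from 0.333 to 0.974. LPS re-stimulated arrays read 9.24 and 10.19, CpG 8.87, 9.36 and 9.46, Pam3CSK4 10.65, 9.29 and 10.94, and Poly(I:C) 8.54, 9.34 and 8.25. All 11 lay above the highest naive array.

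The rise of Nqo1 over naive was called for CpG at 1.72 (SE 0.33, 3.28-fold, adjusted p = 0.0263) and for Pam3CSK4 at 2.77 (SE 0.51, 6.84-fold, adjusted p = 0.0403). It missed the threshold for LPS at 2.20 (SE 0.45, adjusted p = 0.0618) and for Poly(I:C) at 1.19 (SE 0.40, adjusted p = 0.120). With the replicate number as a block the adjusted p was 0.0565 for CpG and 0.0546 for Pam3CSK4, and without naive replicate 1 or 2 or any 1 of the re-stimulated arrays both calls were lost, with adjusted p from 0.0559 to 0.150. The gain over acute LPS in LPS re-stimulated BMDM was 3.01 (SE 0.64, 8.05-fold, adjusted p = 0.0148). That call was lost without LPS re-stimulated replicate 2 (adjusted p = 0.0880), and the array left out by the authors read 6.61, which brought the gain to 1.82 and the adjusted p to 0.353 when all 27 arrays were used. On re-stimulation with Pam3CSK4 the gain was 2.08 (SE 0.55, adjusted p = 0.229), with CpG 1.36 and with Poly(I:C) 1.16, where replicate 3 gave -0.03 within its number. Nqo1 and Nfe2l2 thus followed different orders of groups, with a Pearson r of -0.23 over the 9 group means.

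**Figure D2:**
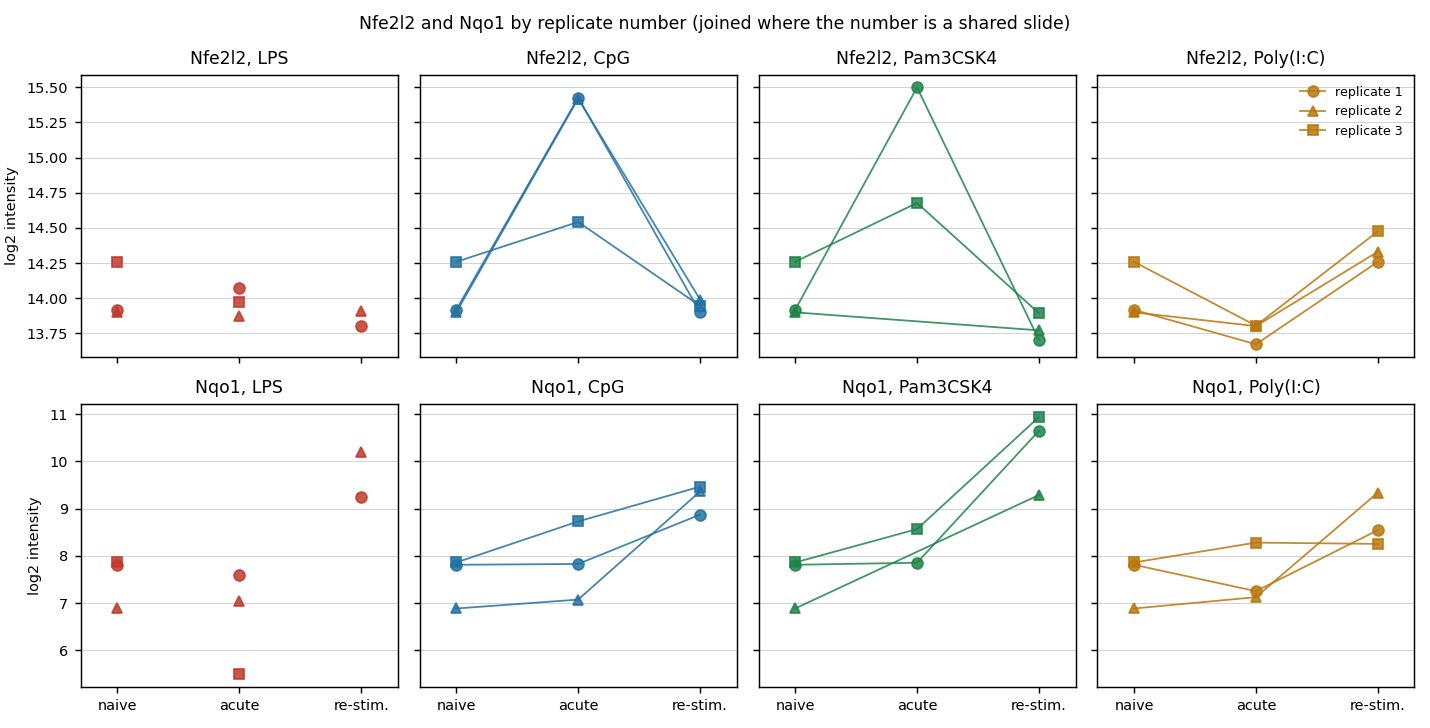
Log2 intensity of Nfe2l2 and of Nqo1 in naive, acute and re-stimulated BMDM, with 1 line for each replicate number within a ligand. LPS points are not joined, since acute LPS had slides of its own. Pam3CSK4 replicate 2, without an acute array, is joined from naive to re-stimulated. From acute to re-stimulated BMDM Nfe2l2 goes down with CpG and Pam3CSK4 and up with Poly(I:C). Nqo1 goes up there with every ligand except within Poly(I:C) replicate 3, where it moves by -0.03.

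Counted over the 9 members, the comparison of LPS re-stimulated with LPS acute BMDM held most calls. Of its members 7 were called, Hmox1, Gclc, Gclm, Nqo1, Slc7a11 and Srxn1 up and Keap1 down, which is 77.8%, where 34.2% of all probes tested were called. Nfe2l2 itself and Txnrd1 were not among them. This count fell to 1, Srxn1, without LPS re-stimulated replicate 2 and also with all 27 arrays. Groups did not overlap for these 7 members, as for 62.7% of all probes.

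Against naive BMDM the counts of called members were small. Acute LPS had 2 of 9, Slc7a11 up and Srxn1 down, beside 26.4% of all probes. Acute CpG had 1 of the 8 members tested, Slc7a11, beside 5.72%, and acute Poly(I:C) had 1 of 8, Keap1, beside 6.03%. Acute Pam3CSK4, with 2 arrays, had 0 of 9 by limma, beside 0% of all probes, while 5 of the 9 members had an unadjusted p under 0.05, as had 3458 of 27843 probes. Re-stimulated BMDM had 1 of 9 for LPS beside 5.66%, 2 of 8 for CpG beside 13.1%, 2 of 9 for Pam3CSK4 beside 5.36%, and 1 of 8 for Poly(I:C) beside 9.03%, and the called members were Slc7a11 in all 4 and Nqo1 in CpG and Pam3CSK4.

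Between acute and re-stimulated BMDM the background was 3.56% of probes with CpG and 4.93% with Poly(I:C), the contrasts that chose Nfe2l2, in which 0 members were called and nothing is read from the count. For Pam3CSK4 it was 0%, with 0 of 9 members called by limma and 2 of 9, against 3461 of 25430 probes, at an unadjusted p under 0.05. Between acute ligands 0 of 8 members were called in each pair, beside 0% of probes for CpG against Pam3CSK4, 0.173% for CpG against Poly(I:C) and 2.42% for Pam3CSK4 against Poly(I:C). At an unadjusted p under 0.05 these pairs had 0, 5 and 5 of the 8, against 882 of 25399, 3692 of 26534 and 4506 of 26658 probes. Closest to the threshold among them was Keap1, lower after Pam3CSK4 than after Poly(I:C), with a difference of -1.22 (SE 0.20, adjusted p = 0.0523).

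**Figure D3:**
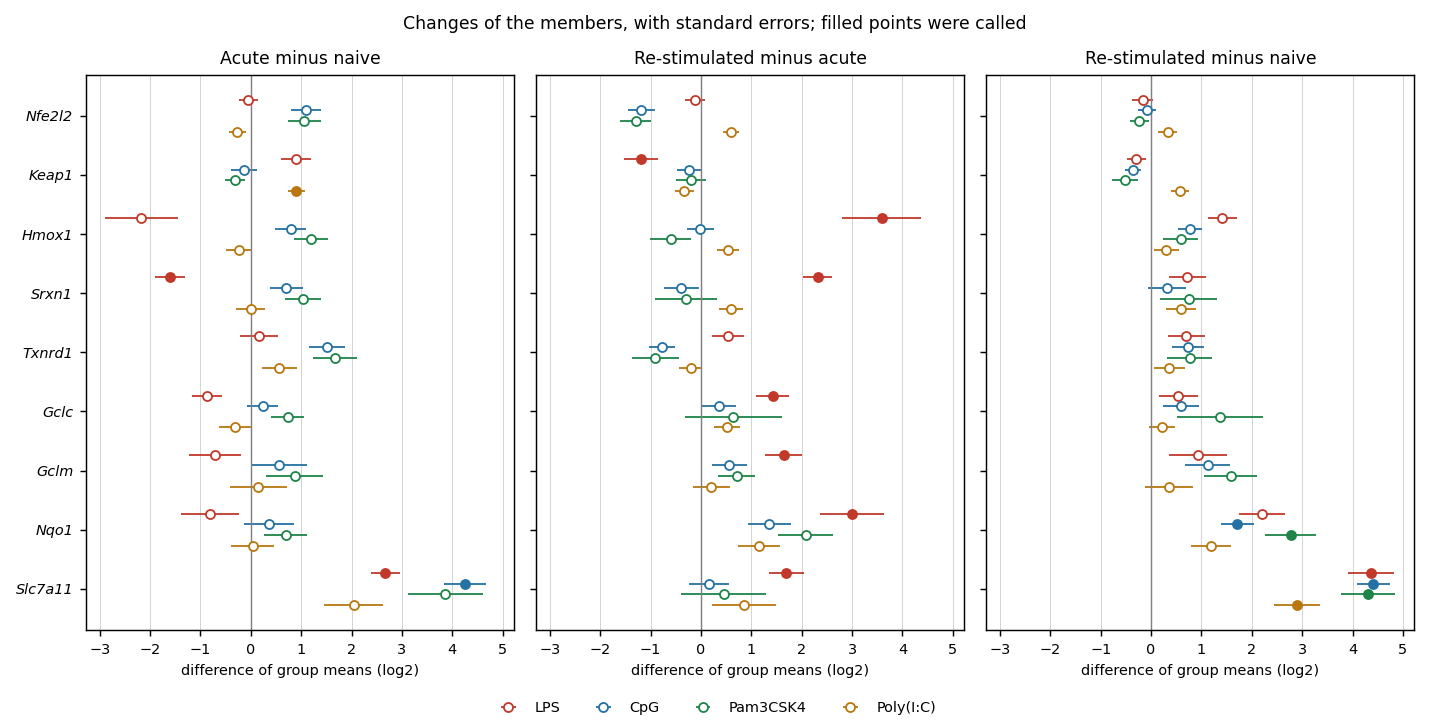
Change of each member, as a difference of log2 intensities with its SE, in acute against naive, re-stimulated against acute and re-stimulated against naive BMDM for the 4 ligands. Slc7a11 is to the right of 0 against naive for every ligand, acute and re-stimulated. In the panel of re-stimulated against acute BMDM the LPS points hold 7 called members.

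Other genes of the pathway came from a list fixed by function, not by change, with 50 genes on the array of which 48 were tested in each comparison. After acute LPS 3 of these were called up and 13 down, with a median change of -0.43 against -0.01 over all probes, and with array medians set equal the calls were 2 up and 2 down and the median was 0.10 against 0.21 over all probes. The share of all probes called in this comparison was 26.4%. Small MAF genes encode the partners of NRF2 on DNA and did not move together. Maff and Mafk had the largest rises, by 5.08 (SE 0.26, adjusted p = 0.000324) and 2.52 (SE 0.17, adjusted p = 0.000618). Mafg fell by -1.07 (SE 0.28, adjusted p = 0.0346). Other genes that fell included Osgin1, an oxidative stress induced growth inhibitor, by -3.26 (SE 0.38, adjusted p = 0.00263), the heme transporter Slc48a1 by -1.98 (SE 0.22) and the glutathione transferase Mgst1 by -1.22 (SE 0.35, adjusted p = 0.0475). Of the 5 thioredoxin and peroxiredoxin genes 0 were called by limma and 2 had an unadjusted p under 0.05. Over the 48 genes the calls were 7 up and 16 down without naive replicate 3, but 3 up and 5 down without naive replicate 1, 2 and 6 without naive replicate 2, 2 and 4 without LPS acute replicate 1 and 2 and 5 without LPS acute replicate 2.

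LPS re-stimulated against LPS acute gave 23 of 48 called up and 4 down, with a median change of 0.94 against -0.02 over all probes, in a comparison in which 34.2% of all probes were called. By role these were 6 up of 11 glutathione genes, 4 of 5 thioredoxin and peroxiredoxin genes, 3 of 6 NADPH supply genes, 3 of 7 heme and iron genes, 5 up and 2 down of 10 detoxification and export genes, and 2 up and 2 down of 9 partners and regulators. Osgin1 rose by 4.06 (SE 0.33, adjusted p = 0.000786), Slc48a1 by 2.31 (SE 0.20), glutathione reductase Gsr by 1.66 (SE 0.26, adjusted p = 0.00582) and the peroxiredoxin Prdx6 by 1.60 (SE 0.34). Mafk fell by -2.62 (SE 0.32) and Maff by -2.02 (SE 0.30, adjusted p = 0.00450), whereas Mafg rose by 1.71 (SE 0.25, adjusted p = 0.00443). The counts were 10 up and 4 down without LPS re-stimulated replicate 2 and 6 up and 0 down with all 27 arrays.

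**Figure D4:**
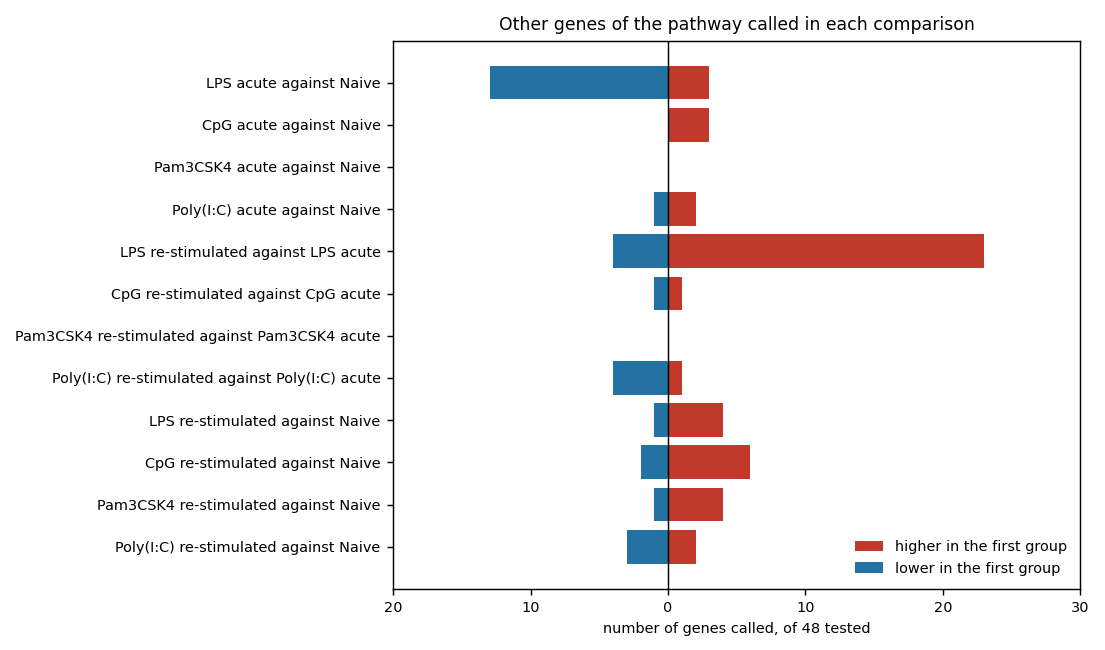
Number of other pathway genes called up and down, of 48 tested, in each comparison with naive BMDM and of re-stimulated with acute BMDM. The bars are longest in LPS re-stimulated against LPS acute BMDM, with 23 up and 4 down, and in LPS acute against naive BMDM, with 3 up and 13 down, or 2 up and 2 down when array medians are set equal.

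With the other ligands the counts are read beside the shares of all probes called that are given above for the members. Acute CpG had 3 of 48 up and 0 down, Maff by 5.08 (SE 0.21, adjusted p = 0.000891), the KEAP1-binding autophagy receptor Sqstm1 by 1.92 (SE 0.35, adjusted p = 0.0362) and Prdx5 by 1.12 (SE 0.19, adjusted p = 0.0309). Only Maff was called with the replicate number as a block, without the detection filter, and without naive replicate 1 or 2 or CpG acute replicate 1 or 2. Acute Poly(I:C) had 2 up, Maff by 2.54 and Mafk by 2.22, and 1 down, Osgin1 by -2.19. Acute Pam3CSK4 had 0 by limma, with 5 of 48 at an unadjusted p under 0.05.

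Against naive BMDM the re-stimulated groups had 4 up and 1 down with LPS, 6 up and 2 down with CpG, 4 up and 1 down with Pam3CSK4 and 2 up and 3 down with Poly(I:C), and with array medians set equal 5 and 0, 10 and 0, 7 and 1 and 5 and 0. Maff and the peroxiredoxin Prdx5 were up in all 4, Maff by 3.06, 4.36, 3.01 and 3.55 and Prdx5 by 1.64, 1.57, 1.74 and 1.72 in the order LPS, CpG, Pam3CSK4 and Poly(I:C). The glutaredoxin gene Glrx was up with LPS by 2.37, with CpG by 1.34 and with Pam3CSK4 by 1.54. Ephx1, a microsomal epoxide hydrolase, was down by -2.43 with LPS, -2.49 with CpG and -2.76 with Poly(I:C). Bach1, whose product competes with NRF2 for its sites, was down by -1.24 with CpG and with Poly(I:C). Without naive replicate 3 the counts were 16 up and 4 down for LPS, 10 and 6 with CpG, 8 and 2 with Pam3CSK4 and 4 and 5 with Poly(I:C). Without naive replicate 1 they were 1 and 0, 3 and 1, 0 and 0, and 2 and 1 in the same order, and without naive replicate 2 they were 1 and 0, 3 and 0, 0 and 0, and 2 and 0. When the replicate number was a block Pam3CSK4 had 0, CpG 3 up and 1 down and Poly(I:C) 2 up and 1 down. The LPS calls were all lost without either LPS re-stimulated array and with all 27 arrays.

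Slc7a11 is also a target of ATF4, the factor of the amino acid and integrated stress response, so 10 genes of that response were set beside it. After acute LPS 3 of the 9 tested rose, the serine synthesis genes Phgdh by 2.53 (SE 0.72) and Psat1 by 2.08 (SE 0.57) and the stress gene Sesn2 by 1.25 (SE 0.27), and Ddit3 fell by -1.42 (SE 0.20). Acute CpG, in which Slc7a11 rose by 4.25, had 0 of 9 called by limma, 1 of 9 at an unadjusted p under 0.05, and a median of 0.47. In Poly(I:C) re-stimulated BMDM Chac1, a glutathione-degrading enzyme, was 4.50 (SE 0.78) and Trib3, a pseudokinase, 3.23 (SE 0.59) above naive, 2 of 9 called up. The median there was 2.00. In the other re-stimulated groups against naive BMDM it was 1.07 with LPS, 0.30 with CpG and 0.20 with Pam3CSK4. Of the 9 tested, 1 was called up with LPS and 1 down with Pam3CSK4. With CpG 0 were called by limma and 2 had an unadjusted p under 0.05. From LPS acute to LPS re-stimulated BMDM Slc7a11 rose by 1.69. There 1 of 9 was called up and 2 down, with a median of -0.999. Of all probes tested, 26.4% were called after acute LPS, 5.72% after acute CpG and 9.03% in Poly(I:C) re-stimulated against naive BMDM. For LPS, CpG and Pam3CSK4 re-stimulated against naive BMDM the shares were 5.66%, 13.1% and 5.36%. For LPS re-stimulated against LPS acute BMDM the share was 34.2%. Whether Slc7a11 moved together with these genes was not tested.

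Beyond the pathway, the genes whose 9 group means ran most like those of Nfe2l2 were Zfp263 (Pearson r = 0.85), Phf13 (r = 0.84), Mllt6 (r = 0.83), Ptpn23 (r = 0.83) and Plcd1 (r = 0.83), of 7290 candidates. Among members the r with Nfe2l2 was 0.76 for Txnrd1, 0.41 for Srxn1, 0.32 for Hmox1, 0.24 for Slc7a11, 0.11 for Gclc and 0.04 for Gclm. These values describe 9 groups that share slides and, within replicate numbers, deviations.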

How the data were processed

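Total RNA of mouse BMDM was labelled with Cy3 and hybridised to 27 single-colour Agilent arrays of 62976 spots in 9 groups, grouped by the sample titles. The authors corrected scanner intensity for background by RMA and quantile normalized it, and deposited log2 values for 25 arrays, which were the main values here. The scanner intensity files deposited for all 27 arrays were used for detection and slides and to rebuild the values, with a median absolute difference of 0.0355 from the deposited log2 values (at most 0.0605 for members). Probes were named from the array file of naive replicate 1. An earlier design file, used for acute LPS, named 6580 probes otherwise, with the same sequences.

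Comparisons of 2 groups were fitted with limma 3.58.1 in R 4.3.3 (tables read with version 1.17.8 of data.table) over the probes that at least 2 arrays of 1 of the groups showed well above background, with Benjamini-Hochberg adjustment. Probes with an adjusted p under 0.05 and at least 1.5-fold change were called. The scripts were tested on simulated data. The lead probe of a gene was that with the highest mean. From each pathway list at most 3 called genes per direction and comparison were named, those with the largest change. The members and lists were chosen with earlier results of these data known, and nothing here is independent support for them.

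Replicate numbers came from the titles and equal the slide. Deviations of same-numbered samples correlated with r over 0.1 in all 3 pairs of the CpG, Poly(I:C) and Pam3CSK4 re-stimulated comparisons with naive BMDM. The same held for acute CpG and acute Poly(I:C) against naive BMDM and against each other. It also held for CpG and Poly(I:C) re-stimulated against acute. In these comparisons the number pairs the samples, and blocked values stand beside results they change. Alternatives were the rebuilt values, median scaling, normexp background with an offset of 50, Agilent's processed signal scaled to its 75th percentile, no detection filter, the mean of all probes, the replicate block, 1 fit of all groups with and without slide as a random block, all 27 arrays, and each array left out. Counts of other pathway genes under these settings were chosen after seeing the data. The number of arrays limits the precision.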

Additional observations from a re-analysis of the deposited data

Results flagged for a closer look

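The change of Nfe2l2 from acute to re-stimulated BMDM went one way on every array with CpG (-1.18) and with Pam3CSK4 (-1.30) and the other way with Poly(I:C) (0.60). The difference between ligands was not tested, since the CpG and Poly(I:C) values chose the gene.

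Both arrays that the authors left out carried member signals above all 3 naive arrays when they were normalized together with the other 25. On the left-out Pam3CSK4 acute array Nfe2l2 read 15.01, against at most 14.23 in naive BMDM, and Txnrd1 read 15.32, against at most 14.70. On the left-out LPS re-stimulated array Hmox1 read 16.69, against at most 15.94, Slc7a11 read 9.16, against at most 7.18, and Gclc read 12.23, against at most 11.63. The left-out LPS re-stimulated array had 92.4% of probes well above background and 0.156% of spots flagged as non-uniform. The left-out Pam3CSK4 acute array had 99.9% and 22.6%. The part of their quality in these values was not tested.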

How the results depend on the processing

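Slc7a11 after acute LPS and on CpG re-stimulation against naive, and Srxn1 in LPS re-stimulated against acute BMDM, were called under every setting, and no called change of a member turned sign. Some changes that missed the threshold were called in other settings. Among them were Nqo1 and Hmox1 in LPS re-stimulated against naive BMDM, each in 6 of 15. Txnrd1 after acute CpG was called in 6 of 16, and Keap1 and Hmox1 after acute LPS in 4 of 16 each. Slc7a11 after acute Poly(I:C) was called in 4 of 16. Counts of called members, which leave out Nfe2l2 wherever CpG or Poly(I:C) arrays enter, moved by over 1.5 times as follows, with the ligand alone standing for acute against naive BMDM. Median scaling, which shifted the median of all probes by -0.28 to 0.77, gave 1 for LPS, 2 for CpG, 1 for Pam3CSK4, 1 each for CpG (read for nothing) and Pam3CSK4 re-stimulated against acute, 3, 5 and 4 for LPS, CpG and Pam3CSK4 re-stimulated against naive, and 1 for acute Pam3CSK4 against Poly(I:C). Normexp gave 5 for LPS, 2 for CpG, 3 for LPS re-stimulated against naive and 1 for Pam3CSK4 against Poly(I:C). The processed signal gave 2 for CpG, and 3, 4 and 2 for LPS, CpG and Poly(I:C) re-stimulated against naive. Without the detection filter Poly(I:C) had 0 and CpG and Pam3CSK4 re-stimulated against naive had 1 each.

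With the replicate number as a block the counts were 0 for Poly(I:C), and 2, 1, 0 and 0 for LPS, CpG, Pam3CSK4 and Poly(I:C) re-stimulated against naive, and where the number pairs the samples it changed no other call of a member. The number was not taken to pair the samples in the LPS comparisons, with r from 0.00874 to 0.118, or in those of acute Pam3CSK4, which have only 2 pairs, with r from 0.265 to 0.665 on shared slides. A fit of all 9 groups gave 4 for LPS, 2 for CpG, 3 for Pam3CSK4, 2 for Poly(I:C), 1 for Pam3CSK4 re-stimulated against acute, 2 for LPS re-stimulated against naive, 2 for CpG against Poly(I:C) and 1 for Pam3CSK4 against Poly(I:C). Slide as a random block gave the same 4, 2, 3 and 2, then 2 for Pam3CSK4 re-stimulated against acute, 3 and 4 for LPS and Pam3CSK4 re-stimulated against naive, and 2 and 1 for the same ligand pairs. All 27 arrays gave 1 for LPS re-stimulated against acute and 0 against naive. With 1 array left out the counts ran from 2 to 3 for LPS, 0 to 2 for CpG, 0 to 2 for Poly(I:C), 1 to 8 for LPS and 0 to 1 for CpG re-stimulated against acute, 0 to 3, 1 to 3, 0 to 3 and 0 to 1 for LPS, CpG, Pam3CSK4 and Poly(I:C) re-stimulated against naive, and 0 to 1 for CpG against Poly(I:C). Leaving out an acute Pam3CSK4 or LPS re-stimulated array leaves a single array, assumed to vary like the other group. The causes were not tested.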

Other observations

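The left-out arrays also held member values outside the naive range on the low side, in the same joint normalization. Nqo1 read 6.61 on the LPS re-stimulated array and 2.57 on the Pam3CSK4 acute array, where the lowest naive value was 7.10. Gclc read 7.04 and Gclm 4.86 on the Pam3CSK4 acute array, below the lowest naive values of 10.83 and 10.13, and Keap1 read 10.35 there, below 12.67.

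Genes of the ATF4 response that are no NRF2 targets moved on Poly(I:C) re-stimulation. Chac1 read 5.76 in Poly(I:C) acute and 10.96 in Poly(I:C) re-stimulated BMDM, a change of 5.20 (SE 0.82). Trib3 changed by 4.20 (SE 0.66) and Ddit3, the pro-apoptotic factor CHOP, by 3.34 (SE 0.67). Atf4 itself had group means of 14.77 and 16.09 in these groups and of 15.44 and 16.12 in LPS acute and LPS re-stimulated BMDM. Ddit3 also rose in LPS re-stimulated BMDM, by 2.58 (SE 0.23) over LPS acute and by 1.16 (SE 0.18) over naive BMDM. The Poly(I:C) changes are in the contrast that chose Nfe2l2 and are given as values only.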
